A study of Homo sapiens with 8 samples.

Results

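The insulin-like growth factor (IGF) axis was followed here through 10 genes in the transcriptome of BJ-HRAS cells: the ligands IGF1 and IGF2, the receptors IGF1R and IGF2R, and the binding proteins IGFBP2, IGFBP3, IGFBP4, IGFBP5, IGFBP6 and IGFBP7. They were chosen by gene name and fill 11 of the 58825 genes used, because IGF2 is listed under 2 gene IDs. Of the 10 members, 8 passed the filter on low values that 16542 genes passed, and IGF1 and IGF2 did not. BJ is a line of human skin fibroblasts. The study crossed the genotype of SNORA13, a small nucleolar RNA of the H/ACA class that guides pseudouridylation of other RNAs, with (Z)-4-hydroxytamoxifen (4-OHT), a ligand of the oestrogen receptor and of proteins fused to its ligand-binding domain.

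All 4 groups are BJ-HRAS cells, and each holds 2 clones that the labels call independent. Clones 15 and 54 are WT and clones 66 and 69 are SNORA13 KO. Each clone gave 1 library without 4-OHT and 1 after 7 days in 100 nM 4-OHT. No day is listed for the libraries without 4-OHT, and the part of time in culture in the responses was not tested. The labels do not say how HRAS was introduced or how the knockout was made. A genotype difference therefore compares 2 clones with 2 clones, together with whatever else sets those clones apart.

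IGF1 and IGF2 bind IGF1R, a receptor tyrosine kinase at the cell surface that signals through the IRS proteins, PI3K and AKT and through RAS and MAPK. IGF2R, also called the cation-independent mannose 6-phosphate receptor, takes up IGF2 for breakdown and sorts enzymes to the lysosome, and it does not signal as a kinase. The IGFBPs are secreted carriers that hold IGFs away from IGF1R or deliver them to it, and proteases such as PAPPA cut some of them and free the ligand. IGFBP7 binds IGFs only weakly. In cultured fibroblasts several IGFBPs are abundant secreted products, and some are known from the medium of senescent cells.

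The promoters of 4 members are shown because these genes stand for the patterns described further on. They are IGFBP5 and IGFBP3, the members with the largest falls, IGFBP2, the member that differed by genotype, and IGF2R, the member that rose. The sequences come from RefSeq (GRCh38.p14), 250 bases before to 50 after the start of the gene in that table, and 8 of the 10 members matched (IGFBP7 and IGF2 are named only). Letters are 5′ to 3′ on the strand of the gene, and capitals mark every match, on either strand, to 6 short motifs named after the sequences.
IGFBP5, chr2:216695500-216695799, minus strand: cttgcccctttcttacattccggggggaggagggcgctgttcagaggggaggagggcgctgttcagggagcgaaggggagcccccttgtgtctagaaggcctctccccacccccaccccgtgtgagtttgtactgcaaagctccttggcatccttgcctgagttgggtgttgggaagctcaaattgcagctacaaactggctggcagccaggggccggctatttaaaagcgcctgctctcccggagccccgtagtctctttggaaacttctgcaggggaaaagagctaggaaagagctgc
IGFBP3, chr7:45921223-45921522, minus strand: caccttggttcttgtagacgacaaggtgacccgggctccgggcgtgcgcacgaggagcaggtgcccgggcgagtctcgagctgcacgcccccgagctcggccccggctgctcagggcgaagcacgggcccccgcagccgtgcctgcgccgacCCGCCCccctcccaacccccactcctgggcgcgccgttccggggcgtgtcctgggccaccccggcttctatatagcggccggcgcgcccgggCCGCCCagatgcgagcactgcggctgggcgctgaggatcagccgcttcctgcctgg
IGFBP2, chr2:216632578-216632877, plus strand: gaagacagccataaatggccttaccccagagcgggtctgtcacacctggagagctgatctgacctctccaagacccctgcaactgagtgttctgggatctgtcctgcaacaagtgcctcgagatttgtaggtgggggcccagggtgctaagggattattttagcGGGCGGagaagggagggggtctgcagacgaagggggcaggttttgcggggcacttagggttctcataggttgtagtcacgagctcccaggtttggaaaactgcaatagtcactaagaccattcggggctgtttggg
IGF2R, chr6:159968832-159969131, plus strand: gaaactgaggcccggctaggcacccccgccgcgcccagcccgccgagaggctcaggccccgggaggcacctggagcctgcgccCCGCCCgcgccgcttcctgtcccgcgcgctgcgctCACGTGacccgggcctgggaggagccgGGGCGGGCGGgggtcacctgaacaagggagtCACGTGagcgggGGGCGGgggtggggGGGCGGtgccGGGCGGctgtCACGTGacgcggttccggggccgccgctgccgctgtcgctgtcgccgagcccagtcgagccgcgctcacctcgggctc

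The IGFBP5 stretch held none of the 6 motifs, and 59.0% of its bases were G or C against a median of 58.7% over the 35116 promoters of the table. The IGFBP3 stretch was 74.7% G or C, with GC boxes starting 98 and 6 bases before the RefSeq start used for the window. That stretch lies inside the interval given for IGFBP3 further on (7:45912245-45921874, minus strand), whose start is at 45921874. In IGFBP2 (55.3% G or C) 1 GC box started 86 bases before the gene start. The IGF2R stretch was the richest of the 4 at 78.7% G or C, with 6 GC boxes, 2 of which overlap each other, and 3 E-boxes. The letters searched for the GC box were GGGCGG, present in 45.0% of all promoters of this length. Those of the E-box were CACGTG, present in 7.26%. None of the 4 stretches held the AP-1 letters TGANTCA (7.71% of promoters) or the ETS letters CCGGAAG (10.3% of promoters). The FOXO letters TGTTTAC (3.42% of promoters) and the TATA box TATAAA (11.5% of promoters) were not in them either. Among the other 4 matched members, IGFBP4 had a TATA box and 2 GC boxes, IGFBP6 a FOXO match and 1 GC box, IGF1 a FOXO match and IGF1R 2 GC boxes. These are matches of letters in 1 window per gene and say nothing of binding.

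Library totals were 22.1 to 24.9 M reads, recovered from the deposited RPKM values (reads divided by transcript length in kb and by library size), so that 1 read in a transcript of 1 kb was worth 0.0401 to 0.0453 RPKM. SNORA13 had 4 to 7 reads in the 4 WT libraries and 0 in the 4 KO libraries, where a count of 0 allows up to 3 reads. Summed over 10 fibroblast markers, all tested, the level was 4060 to 4307 and 3842 to 4032 RPKM in WT and KO libraries without 4-OHT and 1934 to 1967 and 1835 to 2136 with it. Epithelial markers summed to 0.0467 to 0.872 RPKM over all libraries, with KRT5 and KRT14 at 0 reads, endothelial markers to 0.150 to 0.354 RPKM and melanocyte markers to 0.234 to 1.07 RPKM. The 3 immune markers, with CD68 at 0 reads, summed to 11.1 to 15.4 RPKM in the 4 WT libraries and 7.94 to 9.47 RPKM in the 4 KO libraries, so that their level moved with genotype. The share of reads in the 7SL RNA genes was 9.18% to 10.13% in the 4 libraries without 4-OHT and in WT clone 15 with it 9.72%, against 14.77% to 16.10% in the other 3 libraries with 4-OHT. The levels of the fibroblast markers thus moved with 4-OHT, and so did the 7SL share except in WT clone 15, which stayed within the untreated range. The part of these marker levels and of the 7SL share in the results that follow was not tested. All levels are shares of the RNA sequenced, and in bulk RNA fewer cells of a type and less RNA per cell cannot be told apart.

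With 4-OHT, 5 of the 6 binding proteins and IGF1R fell in both genotypes, and IGF2R rose in both. The largest falls were in IGFBP5 (64.9-fold in WT, 74.1-fold in KO) and IGFBP3 (15.3-fold and 25.3-fold). The summed level of IGFBP2 to IGFBP7 dropped from 2322 ± 487 to 500.4 ± 10.8 RPKM in WT and from 2936 ± 18.9 to 507 ± 54.9 RPKM in KO (mean ± SD, n = 2 clones). Between genotypes 1 member was called, IGFBP2, which was in KO clones 89.5-fold higher without 4-OHT and 86.2-fold higher with it.

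In numbers of members, 1 rose, 6 fell and 1 was not called in WT, where 48.9% of the genes tested were called (25.2% higher and 23.7% lower). The same 3 counts were found in KO, where 55.7% were called (28.7% higher and 26.9% lower). Calls are from limma's moderated test on log2(RPKM + 0.1) with Benjamini-Hochberg adjusted p under 0.05 over all 16542 genes, and fold changes are on that scale. The median log2 difference of the 8 tested members was -1.50 in WT and -1.77 in KO, beside -0.0021 and 0.0 over all genes tested. Both responses rest on pairs of libraries from the same clones.

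Of the ligands, IGF1 had 0 to 2 reads per library, and the count of 0 listed for IGF2 is not read as a level. IGF1 (GRCh38 12:102395874-102481744, minus strand) had 2 and 1 reads in WT clones 15 and 54 without 4-OHT, 1 read in KO clone 66 and 0 in KO clone 69 without it, and 0 in all 4 libraries with 4-OHT. Of its exonic bases, 82.4% lie opposite HELLPAR on the other strand, which had 11 to 56 reads per library. Whether the counting used the strand is not given, and the part of this overlap in the IGF1 count was not tested. Both IGF2 entries (11:2129112-2149603 and 11:2129112-2158658, minus strand) are listed at 0 reads in all 8 libraries. That 0 is not read as a level here, and the part of shared exons in it was not tested. The 2 entries share 73.7% and 89.97% of their exonic bases with genes on the same strand. These are each other, INS-IGF2 and AC132217.1, which are at 0 as well. Among protein-coding genes, 27.8% of those with over 50% and up to 90% of their exonic bases shared in this way, the class of both entries, were at 0 reads in every library, against 13.2% of those that share none. Insulin (INS) was at 0 reads in all libraries too, and the carrier subunit IGFALS had 1 to 3 reads in each.

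IGF1R (15:98648539-98964530, plus strand) fell with 4-OHT in every clone. It read 7.12 and 7.40 RPKM in WT clones 15 and 54 without 4-OHT and 2.62 and 2.24 with it, and 8.90 and 9.03 RPKM in KO clones 66 and 69 without 4-OHT and 2.38 and 2.02 with it. All 4 libraries with 4-OHT were thus below all 4 without. The log2 difference was -1.54 ± 0.12 (SE) in WT, a 2.91-fold fall (adjusted p 7.81e-05), and -1.98 ± 0.12 in KO, a 3.95-fold fall (adjusted p 2.01e-05).

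IGF2R (6:159969099-160113507, plus strand) moved the other way. Its levels were 11.8 and 12.2 RPKM in WT clones 15 and 54 without 4-OHT and 25.1 and 22.1 with it, and 14.0 and 13.0 RPKM in KO clones 66 and 69 without and 20.9 and 17.2 with it. Every clone rose, WT clones to the higher level. The rise was 1.95-fold in WT (log2 0.96 ± 0.11, adjusted p 0.000411) and 1.402-fold in KO (log2 0.49 ± 0.11, adjusted p 0.00784), and without the library of KO clone 69 that had no 4-OHT the KO call ended (adjusted p 0.0551). The level of IGF1R was 60.1% and 60.5% of that of IGF2R in WT clones without 4-OHT and 10.5% and 10.1% with it, and 63.4% and 69.6% in KO clones without and 11.4% and 11.7% with it.

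**Figure D1:**
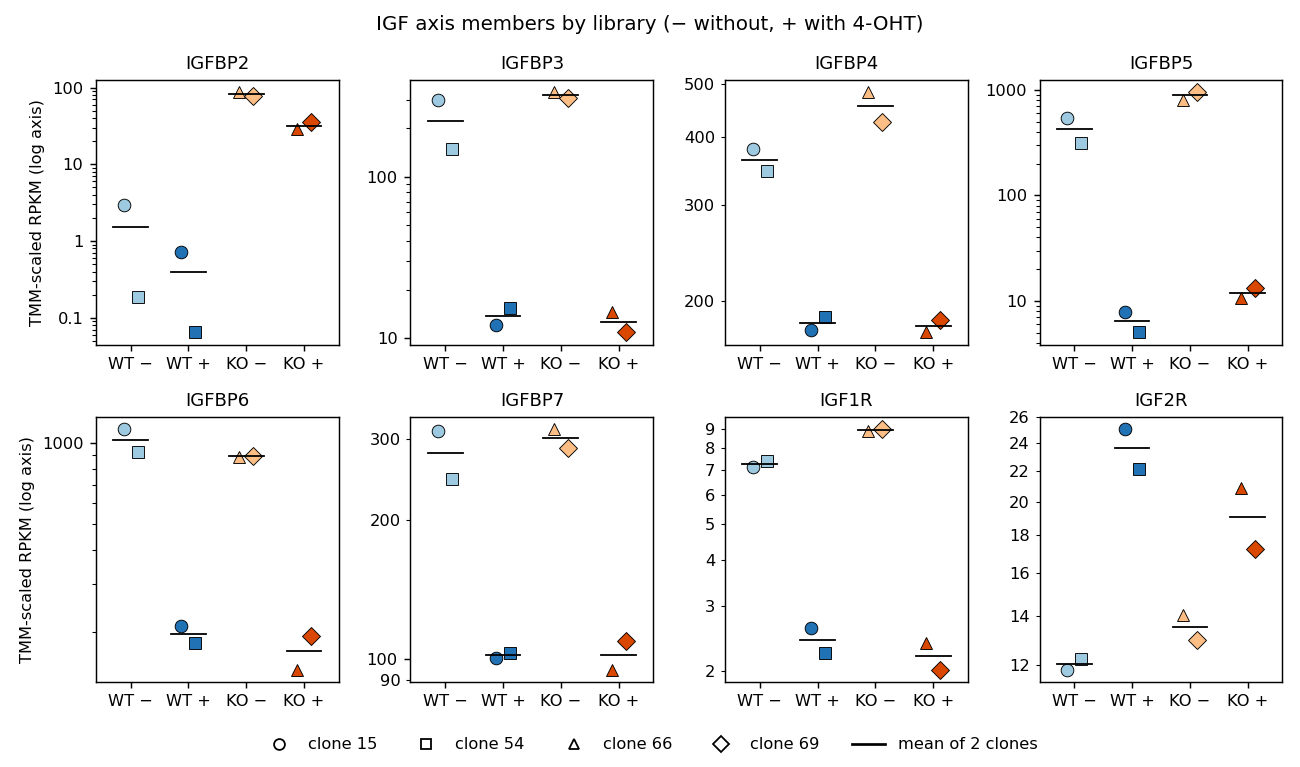
Level of each of the 8 tested members (TMM-scaled RPKM, log axis, a scale of its own in each panel) in the 8 libraries, by genotype without (−) and with (+) 4-OHT. Symbols are clones and bars are means of 2 clones. IGFBP2 stands near 80 RPKM in KO clones without 4-OHT and at 2.91 RPKM or less in WT clones, and IGFBP5 and IGFBP3 drop by over a log unit with 4-OHT in both genotypes.

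IGFBP5 (2:216672105-216695525, minus strand), a carrier that also binds extracellular matrix, fell furthest among the members. It read 545 and 314 RPKM in WT clones 15 and 54 without 4-OHT and 7.81 and 5.04 with it, and 809.5 and 959 RPKM in KO clones 66 and 69 without and 10.6 and 13.2 with it. Within each treatment both KO clones lay above both WT clones, and the treated libraries of all 4 clones lay far below the untreated ones. The log2 difference was -6.02 ± 0.29 in WT (adjusted p 1.2e-05) and -6.21 ± 0.29 in KO (adjusted p 7.51e-06). Of its exonic bases 4.63% lie opposite AC007563.2 on the other strand. By clone the fall was 68.9-fold and 61.2-fold in WT clones 15 and 54 and 75.8-fold and 72.3-fold in KO clones 66 and 69. Among all genes tested IGFBP5 had the eighth largest fall in WT and the 14th largest in KO. By level it went from rank 124 to rank 7035 of 16542 genes in WT and from rank 63 to rank 4945 in KO.

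IGFBP3 (7:45912245-45921874, minus strand), the main IGF carrier of blood plasma, was next. WT clones 15 and 54 had 297 and 148 RPKM without 4-OHT and 12.1 and 15.3 with it, and KO clones 66 and 69 had 335 and 305 RPKM without and 14.5 and 10.8 with it. The 4 treated libraries were close together whatever the genotype, while WT clone 54 was the lowest of the 4 untreated ones. The log2 difference was -3.94 ± 0.30 in WT (adjusted p 6.67e-05) and -4.66 ± 0.30 in KO (adjusted p 2.28e-05), the 67th and 64th largest falls of all genes. IGFBP1, its neighbour on chromosome 7 with a gap of 18576 bases, had 0 reads in all libraries.

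IGFBP6 (12:53097436-53102345, plus strand), which prefers IGF2 over IGF1, had the highest level of the members in 5 of the 8 libraries, with IGFBP4 or IGFBP5 above it in the other 3. Its levels were 1128 and 922 RPKM in WT clones 15 and 54 without 4-OHT and 210.0 and 182 with it, and 889 and 894 RPKM in KO clones 66 and 69 without and 145 and 193 with it. The groups without and with 4-OHT did not overlap in either genotype. It fell 5.22-fold in WT (log2 -2.38 ± 0.16, adjusted p 3.53e-05) and 5.34-fold in KO (log2 -2.42 ± 0.16, adjusted p 2.23e-05).

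IGFBP7 (4:57030773-57110385, minus strand) gave a similar picture at a smaller size. It read 313 and 247 RPKM in WT clones 15 and 54 without 4-OHT and 100.4 and 103 with it, and 316 and 287 RPKM in KO clones 66 and 69 without and 94.9 and 109 with it. The untreated libraries lay above the treated ones in every clone. The fall was 2.73-fold in WT (log2 -1.45 ± 0.13, adjusted p 0.000112) and 2.96-fold in KO (log2 -1.57 ± 0.13, adjusted p 5.49e-05). On the other strand 18.9% of its exonic bases lie opposite POLR2B and IGFBP7-AS1, and whether the counting used the strand is not given.

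IGFBP4 (17:40443461-40457731, plus strand), a substrate of PAPPA, had the smallest fall among the 5 binding proteins called. WT clones 15 and 54 had 381 and 347 RPKM without 4-OHT and 177 and 187 with it, and KO clones 66 and 69 had 484 and 427 RPKM without and 175 and 184 with it. Treated libraries of either genotype sat within 175 to 187 RPKM. The fall was 1.99-fold in WT (log2 -0.996 ± 0.09, adjusted p 0.000124) and 2.53-fold in KO (log2 -1.34 ± 0.09, adjusted p 2.43e-05).

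**Figure D2:**
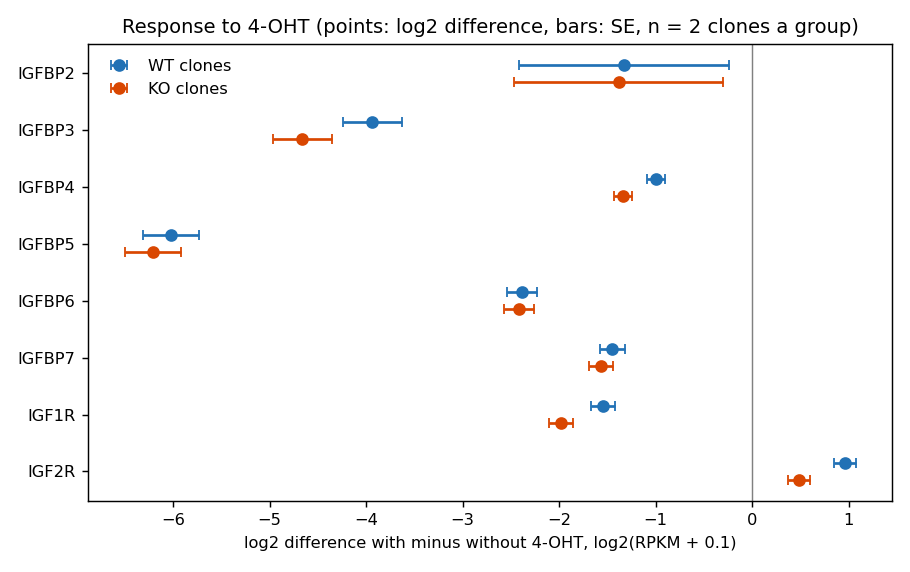
Log2 difference with minus without 4-OHT of the 8 tested members on the log2(RPKM + 0.1) scale, for WT clones (blue) and KO clones (orange). Points are the fitted differences and bars are SE, with 2 clones a group. IGFBP5 lies at -6.02 and -6.21, IGF2R alone lies above 0, and the bars of IGFBP2 are the widest.

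IGFBP2 (2:216632828-216664436, plus strand), a carrier with an integrin-binding motif, was set apart by genotype. It read 2.91 and 0.186 RPKM in WT clones 15 and 54 without 4-OHT (98 and 6 reads) and 0.731 and 0.0644 RPKM with it (26 and 2 reads). In KO clones 66 and 69 it read 88.0 and 78.1 RPKM without 4-OHT (3007 and 2723 reads) and 28.5 and 35.4 RPKM with it (890 and 1179 reads). The lowest KO library, clone 66 with 4-OHT, was thus above the highest WT library, and the WT clones differed from each other as well, clone 15 being the higher in both treatments.

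The KO minus WT difference of IGFBP2 was 6.48 ± 1.08 on the log2 scale without 4-OHT (adjusted p 0.021) and 6.43 ± 1.08 with it (adjusted p 0.0124). It was the largest upward difference of any gene without 4-OHT and the 2nd largest with it. In rank of level, IGFBP2 stood at 11533 of 16542 in WT and 727 in KO without 4-OHT, and at 14006 and 2169 with it. The call without 4-OHT ended with genes of low counts kept (adjusted p 0.0729) and with plain moderation (adjusted p 0.0513). With only these 4 libraries in the fit it ended as well (adjusted p 0.069). It also ended when either untreated KO library was left out, which leaves 1 library in that group. The log2 difference was then 6.40 ± 1.44 without clone 66 and 6.57 ± 1.44 without clone 69. The call with 4-OHT ended when either treated KO library was left out. There the log2 difference was 6.585 ± 1.44 without clone 66 and 6.27 ± 1.44 without clone 69. Over 16 alternative settings each, the log2 difference stayed between 4.79 and 8.18 without 4-OHT and 5.26 and 7.60 with it.

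IGFBP2 was lower with 4-OHT in each of the 4 clones, but the unpaired fit did not call it (log2 -1.33 ± 1.08, adjusted p 0.349 in WT, and -1.38 ± 1.08, adjusted p 0.314 in KO). With the clone as a block, which pairs the 2 libraries of a clone, both were called (adjusted p 0.00899 in WT and 0.00642 in KO). The SE is set in part by the gap between the 2 WT clones. Without the untreated library of WT clone 15 the WT difference turned to 0.37, and without that of WT clone 54 it was -3.03. Each of these fits sets 1 untreated WT clone against both treated ones, so that the gap between the clones enters the difference. Within WT clones 15 and 54 the log2 differences were -1.86 and -0.80.

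IGFBP2 and IGFBP5 are neighbours on chromosome 2, tail to tail, with 7668 bases between their ends. Only IGFBP2 was called between genotypes. IGFBP5 was 2.13-fold higher in KO clones without 4-OHT (log2 1.09 ± 0.29, adjusted p 0.0694) and 1.87-fold higher with it (log2 0.90 ± 0.29, adjusted p 0.0819). Without the untreated library of WT clone 15 the IGFBP5 difference without 4-OHT was 1.49 on the log2 scale. Leaving out either untreated WT library kept the difference with 4-OHT at 0.90, as neither library enters it, while its SE went from 0.29 to 0.21. IGFBP5 was called in these comparisons, whose fits leave 1 library in the untreated WT group.

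Of the 8 members, 1 was called higher and 0 lower in KO than in WT without 4-OHT, where 6.32% of genes were called (2.58% higher and 3.74% lower), and the same held with 4-OHT, where 14.4% were called (6.7% higher and 7.65% lower). IGF1R, IGF2R, IGFBP3, IGFBP4, IGFBP6 and IGFBP7 were not called in either comparison. Their log2 differences lay between -0.19 for IGFBP6 and 0.61 for IGFBP3 without 4-OHT and between -0.31 for IGF2R and 0.0001 for IGFBP7 with it. Without the untreated library of WT clone 15, IGFBP3 (log2 1.11, adjusted p 0.0192) and IGFBP4 (adjusted p 0.0492) were called higher in KO without 4-OHT, and IGFBP4 was also called by limma-voom on the recovered reads (adjusted p 0.0315).

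**Figure D3:**
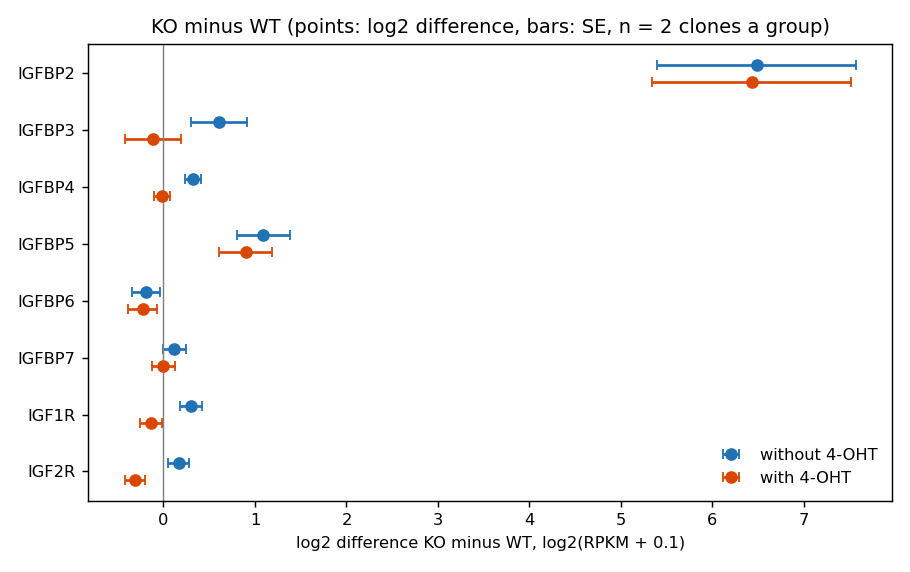
Log2 difference KO minus WT of the 8 tested members on the log2(RPKM + 0.1) scale, without (blue) and with (orange) 4-OHT. Points are the fitted differences and bars are SE, with 2 clones a group. IGFBP2 lies at 6.48 and 6.43, and the others lie between -0.31 and 1.09.

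Whether the response to 4-OHT differed between genotypes was asked with the interaction, the KO response minus the WT response. None of the 8 members was called, where 7.44% of the genes tested were (4.36% with the higher and 3.08% with the lower value in KO). The smallest of limma's adjusted p among the members were 0.118 for IGF2R, 0.148 for IGFBP4 and 0.175 for IGF1R. Their log2 differences were -0.48 ± 0.16, -0.34 ± 0.13 and -0.44 ± 0.18. As fitted, that is a smaller rise of IGF2R and a larger fall of IGFBP4 and IGF1R in KO, but none of these was called. For IGFBP3 the difference was -0.72 ± 0.43 (adjusted p 0.341), and it was called without the untreated library of WT clone 15 (log2 -1.22, adjusted p 0.0279). IGFBP2, IGFBP5, IGFBP6 and IGFBP7 differed by -0.05, -0.19, -0.03 and -0.12 on the log2 scale, each less than its SE.

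The make-up of the binding protein pool changed along with its size. IGFBP6 took 42.3% and 46.6% of the summed RPKM of IGFBP2 to IGFBP7 in WT clones 15 and 54 without 4-OHT, and 41.3% and 36.9% with it. In KO clones 66 and 69 its share was 30.4% and 30.3% without 4-OHT and 30.9% and 35.3% with it. IGFBP4 went from 14.3% and 17.5% to 34.8% and 38.0% in WT clones and from 16.6% and 14.5% to 37.4% and 33.8% in KO clones 66 and 69. The share of IGFBP5 dropped from 20.4% and 15.9% to 1.54% and 1.02% in WT and from 27.7% and 32.5% to 2.26% and 2.41% in KO. IGFBP4 and IGFBP6 thus made up most of the pool in all 4 treated libraries. IGFBP2 was 2.65% and 3.01% of the pool in KO clones without 4-OHT and 6.08% and 6.48% with it, while in WT clones it never passed 0.144%.

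**Figure D4:**
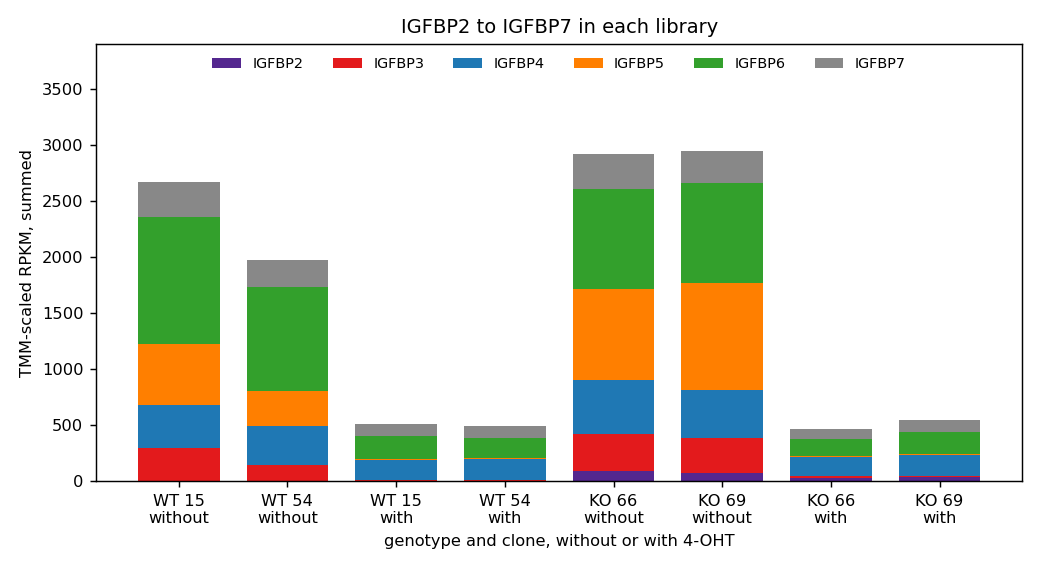
Summed level of IGFBP2 to IGFBP7 (TMM-scaled RPKM) in each library, stacked by gene, for WT clones 15 and 54 and KO clones 66 and 69 without and with 4-OHT. The 4 libraries without 4-OHT reach 1978 to 2949 RPKM and the 4 with it 468 to 546 RPKM, where the segments of IGFBP5 and IGFBP3 are hardly visible.

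In order of level without 4-OHT, WT clones had IGFBP6 first (1025 ± 146 RPKM, SD, n = 2), then IGFBP5 (429 ± 163), IGFBP4 (364 ± 24.0), IGFBP7 (280 ± 46.9) and IGFBP3 (222 ± 105), and far below them IGF2R (12.04 ± 0.27), IGF1R (7.26 ± 0.20) and IGFBP2 (1.55 ± 1.92). The ranges of IGFBP5 and IGFBP4 and those of IGFBP7 and IGFBP3 overlapped. KO clones had IGFBP6 (892 ± 3.28) and IGFBP5 (884 ± 105) level with each other, then IGFBP4 (455.5 ± 40.8), IGFBP3 (320.0 ± 21.2), IGFBP7 (302 ± 20.6), whose ranges overlapped, and IGFBP2 (83.1 ± 7.05). With 4-OHT the order in both genotypes began with IGFBP6 or IGFBP4, whose ranges overlapped, followed by IGFBP7. In WT clones IGF2R (23.6 ± 2.11) then stood above IGFBP3 (13.7 ± 2.26) and IGFBP5 (6.42 ± 1.96).

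Across the 8 libraries IGFBP3 to IGFBP7 and IGF1R ran in parallel, with Pearson r of log2 levels from 0.960 to 0.992 for each pair, while IGF2R ran against them (-0.859 to -0.919). IGFBP2 followed neither closely (0.137 to 0.367 with the first 6). The libraries share their treatment and the 4 clones, so these r describe the 8 points and no more. Among 11093 genes searched, the pattern most like that of IGFBP5 was that of LUM (r 0.9989), the matrix proteoglycan lumican, which went from 379 to 15.4 RPKM in WT and from 806 to 22.0 RPKM in KO, followed by FAP (0.9979), a surface protease of activated fibroblasts, which went from 28.1 to 1.55 and from 40.3 to 2.15 RPKM. IGFBP3 was closest to MLLT3 (0.9993), IGFBP4 to JUND (0.9975), IGFBP6 to DHX58 (0.9986), IGFBP7 to S100PBP (0.9989), IGF1R to TLE4 (0.9989) and IGF2R to UBQLN4 (0.9951). IGFBP2 had the least close partners, MFF (0.9748) and APLP1 (0.9704). APLP1 stood at 4.36 RPKM in WT and 10.5 RPKM in KO clones without 4-OHT, a far smaller difference than that of IGFBP2.

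Of 8 listed proteases that cut IGFBPs and inhibitors of such proteases, 5 were tested. In WT 3 rose and 1 fell, where 48.9% of all genes were called, and in KO 1 rose and 1 fell, where 55.7% were. ADAM9 was called in neither genotype (adjusted p 0.164 and 0.367). STC1 and STC2, the stanniocalcins, bind PAPPA and block it. STC1 had 6.01 and 8.32 RPKM in WT clones 15 and 54 without 4-OHT and 579 and 652 with it, and 4.14 and 4.89 RPKM in KO clones 66 and 69 without and 654.5 and 617 with it. It rose 85.7-fold in WT (adjusted p 1.15e-06) and 138-fold in KO (adjusted p 6.45e-07), so that with 4-OHT its level was above the summed level of IGFBP2 to IGFBP7.

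STC2 rose in WT only by the test of each response, and the test of the difference called it as well. Its levels were 11.3 and 13.5 RPKM in WT clones 15 and 54 without 4-OHT and 38.9 and 34.2 with it, against 17.5 and 18.4 RPKM in KO clones 66 and 69 without and 20.9 and 19.7 with it. KO clones were thus above WT clones without 4-OHT and below them with it. The response was 2.94-fold in WT (adjusted p 4.31e-05) and 1.13-fold in KO (adjusted p 0.198), and the log2 difference between them was -1.38 ± 0.15 (adjusted p 0.00548).

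PAPPA, a metalloprotease that cleaves IGFBP4 among other IGFBPs, had a like pattern at a low level. It read 0.597 and 0.387 RPKM in WT clones 15 and 54 without 4-OHT and 2.88 and 2.90 with it, and 0.872 and 0.835 RPKM in KO clones 66 and 69 without and 1.39 and 0.777 with it. The rise was 5.13-fold in WT (adjusted p 0.000539), while KO clones showed 1.20-fold (adjusted p 0.472), clone 66 being higher and clone 69 lower with 4-OHT. The difference between the responses was -2.09 ± 0.41 (adjusted p 0.0276), and its adjusted p lay between 0.00655 and 0.103 over 15 alternative settings. HTRA1, a serine protease, fell by 0.24 and 0.35 on the log2 scale (adjusted p 0.0425 and 0.00737), a call that ended in WT under 9 of 16 alternative settings, each WT library left out among them.

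Secreted proteins with an IGFBP-like domain mostly fell. Of 10 listed, 8 were tested, with 1 higher and 6 lower in WT and 1 higher and 7 lower in KO. Among all genes tested, 25.2% were higher and 23.7% lower in WT, and 28.7% and 26.9% in KO. The median log2 differences of the list were -0.99 and -1.13. The one that rose was ESM1, also called endocan, from 0.105 to 6.35 RPKM in WT and from 0.202 to 7.39 RPKM in KO. CRIM1, a membrane protein that binds BMPs, fell from 337 ± 19.3 to 156 ± 6.84 RPKM in WT and from 375 ± 15.2 to 114 ± 8.77 RPKM in KO. CCN2, a matricellular protein also called CTGF, went from 76.0 ± 11.4 to 41.1 ± 2.72 RPKM in WT and from 110.0 ± 0.768 to 28.5 ± 3.84 RPKM in KO. CCN5 had 0 reads in all 4 libraries with 4-OHT, which at 3 reads per library puts it at least 3.93-fold lower in WT and 5.03-fold lower in KO, and with CCN5 at these bounds the medians of the list were the same. CCN3 was called in KO alone (log2 -0.59, adjusted p 0.0121, against -0.17, adjusted p 0.39 in WT), but the difference was not called (adjusted p 0.266).

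**Figure D5:**
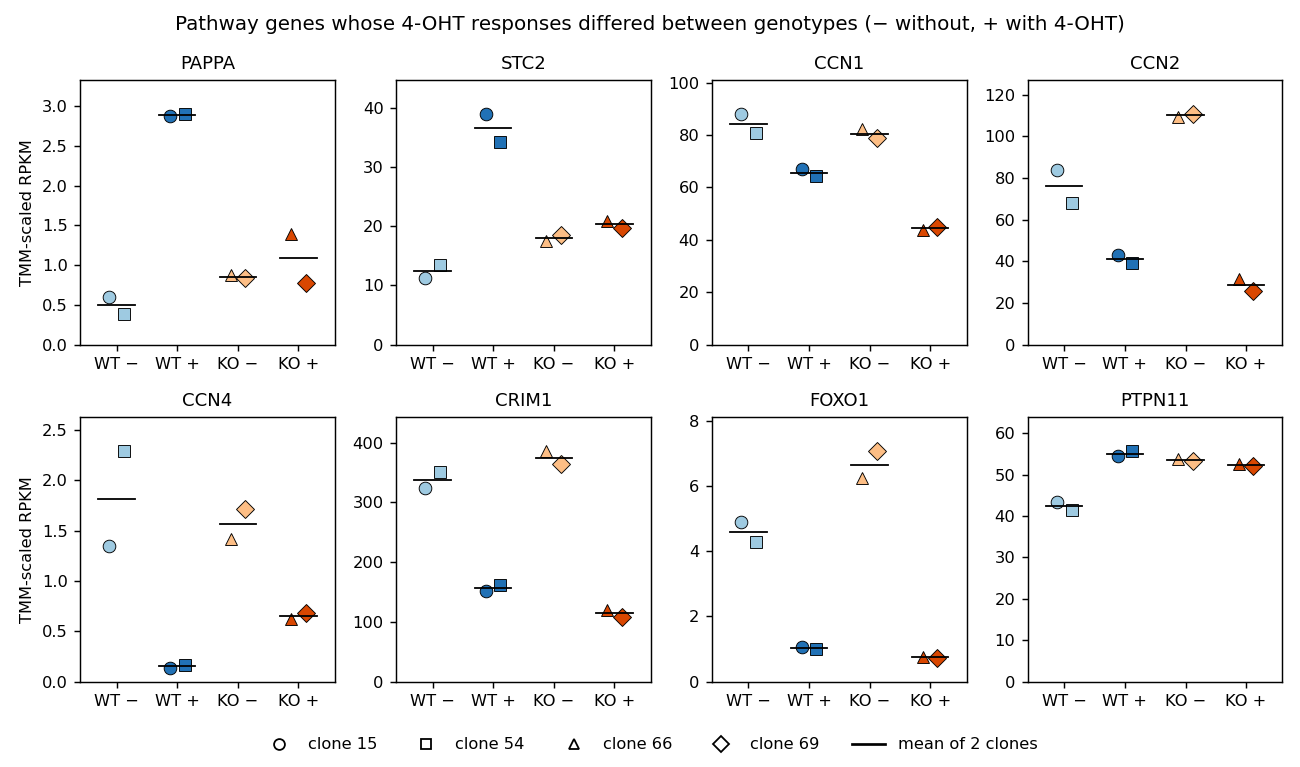
Level (TMM-scaled RPKM, linear axis from 0, a scale of its own in each panel) in the 8 libraries of the 8 pathway genes whose 4-OHT response differed between genotypes, by genotype without (−) and with (+) 4-OHT. Symbols are clones and bars are means of 2 clones. PAPPA, STC2 and PTPN11 rise with 4-OHT in both WT clones, while STC2 stays between 17.5 and 20.9 RPKM in KO clones.

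Downstream of IGF1R and the insulin receptor, 29 of 32 signalling genes were tested. In WT 14 rose and 8 fell, where 25.2% of all genes rose and 23.7% fell. In KO 10 rose and 11 fell, where 28.7% rose and 26.9% fell. IRS2, an adaptor of both receptors, fell from 4.86 ± 0.36 to 0.395 ± 0.042 RPKM in WT and from 9.29 ± 3.77 to 0.346 ± 0.121 RPKM in KO, 10.0-fold and 20.6-fold. FOXO1, a transcription factor that AKT keeps out of the nucleus, fell 4.15-fold and 8.01-fold (adjusted p 4.24e-05 and 7.58e-06). RICTOR, the defining subunit of mTOR complex 2, rose 2.44-fold and 1.97-fold (adjusted p 6.17e-05 and 0.000141). PIK3R1, a regulatory subunit of PI3K, fell by 0.75 in WT and by 1.16 in KO on the log2 scale, and the adaptor GRB2 rose by 0.50 and 0.30. The other adaptor of the receptor, IRS1, rose in WT by 0.50 (adjusted p 0.00346) and was not called in KO (0.21, adjusted p 0.0868), and the difference was not called (adjusted p 0.224). The insulin receptor INSR fell like IGF1R, from 2.27 ± 0.11 to 0.996 ± 0.156 RPKM in WT and from 2.83 ± 0.26 to 0.960 ± 0.038 RPKM in KO.

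Between genotypes, 3 of the 29 signalling genes were higher and 2 lower in KO clones without 4-OHT, and 4 were lower with it, beside 6.32% and 14.4% of all genes called. GRB10, an adaptor that restrains both receptors, was lower in KO clones without 4-OHT (1.44 ± 0.16 against 3.04 ± 0.23 RPKM, adjusted p 0.0238). PTPN11, the phosphatase SHP2, was among those higher there (log2 0.33, adjusted p 0.0289), as was PIK3R1 (0.49, adjusted p 0.0398). With 4-OHT the adaptors SHC1 (-0.46, adjusted p 0.0109) and GAB1 (-0.98, adjusted p 0.0228), the lipid phosphatase INPPL1 (-0.52, adjusted p 0.00904) and TSC1 (-0.33, adjusted p 0.0471) were lower in KO clones. SHC1 was lower without 4-OHT too (-0.34, adjusted p 0.043). These 8 calls are less firm than those of the responses, as each ended under 2 to 12 of 16 alternative settings, single left-out libraries among them.

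Mannose 6-phosphate sorting, in which IGF2R takes part, did not rise as a whole with it. All 7 genes listed were tested, with 2 higher and 3 lower in WT and 1 higher and 3 lower in KO. Shares over all genes tested were 25.2% higher and 23.7% lower in WT, and 28.7% and 26.9% in KO. The 3 that fell in both make the tag: GNPTAB and GNPTG, subunits of the phosphotransferase, fell by 0.98 and 1.23 on the log2 scale in WT and by 1.42 and 1.26 in KO, and NAGPA, the uncovering enzyme, fell by 0.79 and 0.66. M6PR, the smaller mannose 6-phosphate receptor, rose by 0.27 in WT (adjusted p 0.0258) and stood at 0.09 in KO (adjusted p 0.402), and the WT call ended under 6 of 16 settings. The adaptor GGA1 rose by 0.49 and 0.57.

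The 3 RNA-binding proteins named for the IGF2 message, IGF2BP1, IGF2BP2 and IGF2BP3, all rose in both genotypes. Beside them, 25.2% of all genes tested rose in WT and 28.7% in KO. The count of IGF2 itself is not read as a level, as given above. IGF2BP3 went from 0.499 ± 0.150 to 5.37 ± 2.07 RPKM in WT and from 0.427 ± 0.094 to 6.55 ± 0.22 RPKM in KO, 8.95-fold and 12.7-fold. IGF2BP2, at 25.1 to 47.9 RPKM, rose 1.91-fold and 1.82-fold. IGF2BP1 rose by 0.63 and 0.68 (adjusted p 0.0359 and 0.0238), a call that ended in WT under 7 of 16 alternative settings. H19, the imprinted neighbour of IGF2, had 0 to 2 reads per library.

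Among 5 surface partners of IGFBPs, all tested, ITGA5, the integrin subunit that IGFBP2 is reported to bind, rose 2.72-fold in WT and 3.18-fold in KO (adjusted p 6.06e-05 and 2.28e-05). Without 4-OHT it was lower in KO clones (40.4 ± 2.15 against 60.5 ± 8.37 RPKM, adjusted p 0.029), a call that ended under 10 of 16 settings. LRP1, an endocytic receptor, fell by 0.52 and 0.58 (adjusted p 0.0313 and 0.018), calls that ended under 5 and 3 of 16 settings. TMEM219, a receptor of IGFBP3, fell in KO by 0.43 (adjusted p 0.00831) and stood at -0.22 in WT (adjusted p 0.111).

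Over the 74 listed pathway genes, 58 were tested. Of these, 24 rose and 20 fell in WT while 17 rose and 25 fell in KO. Beside them, 25.2% of all genes tested rose and 23.7% fell in WT, and 28.7% and 26.9% in KO. The median log2 differences of the 58 were 0.16 and -0.01. Between genotypes 4 were higher and 3 lower in KO without 4-OHT, beside 2.58% and 3.74% of all genes. With 4-OHT 1 was higher and 10 were lower, beside 6.7% and 7.65%. The response differed in 8, beside 7.44% of all genes, 7 of them with the lower value in KO. The 8 were PAPPA, STC2, CCN1, CCN2, CCN4, CRIM1, FOXO1 and PTPN11, none of them a member of the axis as chosen here.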

How the data were processed

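RNA of 8 libraries was made into stranded total RNA libraries, per the labels' protocols. STAR, featureCounts and edgeR were used with GRCh38, per the submitters' processing notes; no source read for this work gives versions, roles or strand setting. The values that the authors deposited, in 1 table, are RPKM. Columns carry a clone number; a minus sign after it was taken to mean 4-OHT negative, though the labels do not state this. Multiplied by transcript length (GENCODE 29, or inferred for 6676 genes), 100.0% of the values above 0 were whole reads within 0.1. The 45 pseudoautosomal Y rows were left out.

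RPKM values were divided by TMM factors of 0.940 to 1.04 computed from the recovered reads. Genes entered with 10 reads at the median library size in 2 libraries and 15 reads in total. Using limma 3.58.1 (R 4.3.3), group means were fitted to log2(RPKM + 0.1) with trended, robust moderation and 4 residual degrees of freedom; two-sided p-values were Benjamini-Hochberg adjusted (threshold 0.05) and measure only the spread between clones. The fit was tested on simulated reads with the same spread for all genes, no gaps between clones and changes in the WT response only. That test does not cover the genotype comparisons. Untreated and treated libraries of a clone are paired by the labels; their deviations from the group means correlated at 0.31 in WT and 0.01 in KO. Alternatives were the clone block (a random effect for KO minus WT), other pseudocounts, no filter, no TMM, limma-voom, plain moderation, fewer libraries and each library left out.

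Members and gene lists were chosen with earlier results of these data known. Named genes are the members, up to 4 list genes per comparison by smallest p, those whose role bears on a member, and the 3 nearest patterns per member; CCN3, IRS1 and IGF2BP1 among others are named beyond that where a count needed them. For 1 of the genes so named, no values are reported here.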

Additional observations from a re-analysis of the deposited data

Results flagged for a closer look

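The 4-OHT response differed between genotypes, by limma's interaction test, in 8 of the 58 pathway genes tested, beside 7.44% of all genes tested. The KO response minus the WT response, on the log2 scale, was -2.09 for PAPPA, -1.38 for STC2, -0.5 for CCN1, -1.07 for CCN2, 1.73 for CCN4, -0.61 for CRIM1, -0.41 for PTPN11 and -0.95 for FOXO1.

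CCN1, a matricellular protein also called CYR61, went from 84.3 to 65.7 RPKM in WT and from 80.6 to 44.4 RPKM in KO (adjusted p 0.0318). CCN4 went from 1.81 to 0.152 RPKM in WT and from 1.56 to 0.649 RPKM in KO (adjusted p 0.041), the one gene of the 8 with the larger fall in WT. For CCN2 the adjusted p was 0.0172, for CRIM1 0.0278, for FOXO1 0.0349 and for PTPN11 0.0394. PTPN11 rose from 42.5 to 55.1 RPKM in WT and stood at 53.5 and 52.4 RPKM in KO, so that its WT clones without 4-OHT were the libraries apart from the rest.

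The call of STC2 held under all 15 alternative settings (adjusted p 0.000216 to 0.0392). The other calls ended under several of them: CCN2 under 6, PAPPA and CRIM1 under 7, CCN1, CCN4 and FOXO1 under 10 and PTPN11 under 11, most of these with 1 library left out. With the clone as a block, FOXO1 and PTPN11 lost their calls.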

How the results depend on the processing

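In WT, the 7 called members kept their calls and directions in 112 of 112 recomputed values over 16 settings, and in KO in 111 of 112; IGF2R without 1 library is the exception given above. No scaling moved the median of all genes by more than 0.0755 on the log2 scale.

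KO minus WT without 4-OHT depended most on the settings. It called 1046 genes, against 245 without the filter, 475 with plain moderation, 116 with only the 4 libraries compared and 1761 by limma-voom. Members called were 0, 0, 0 and 2 under these 4, against 1. With 4-OHT 2375 genes were called, 997 without the filter and 1519 with plain moderation, and for the interaction 1230, 437 and 672. The cause of these differences was not tested. Leaving out 1 library at a time gave 6453 to 7628 genes and 7 to 8 members in WT, 7191 to 9573 and 6 to 7 in KO, 5 to 1834 and 0 to 4 for KO minus WT without 4-OHT, 197 to 2964 and 0 to 2 with it, and 280 to 2088 and 0 to 1 for the interaction.

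With the clone as a block 8269 genes were called in WT, 9294 in KO, 1066 and 2401 for KO minus WT and 1341 for the interaction; among the members it changed the 2 responses of IGFBP2 and no other call, and among the listed genes it ended the interaction calls of FOXO1 and PTPN11 and the WT calls of PIK3CA and TSC1.

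Signs turned in differences that had not been called. Over the 8 fits with 1 library left out, IGFBP2 in WT ranged from -3.03 to 0.37 and PAPPA in KO from -0.12 to 0.65. The range of IGFBP2 holds the gap between the WT clones, as given above. For KO minus WT, IGFBP7 ranged from -0.054 to 0.29 without 4-OHT, and with it IGFBP3 from -0.32 to 0.091, IGFBP4 from -0.060 to 0.024, IGFBP7 from -0.10 to 0.10, STC1 from -0.038 to 0.13 and INSR from -0.19 to 0.10. For the interaction, IGFBP2 ranged from -1.75 to 1.64 (0.30 with a pseudocount of 0.01, 0.22 by limma-voom), IGFBP5 from -0.59 to 0.21, IGFBP6 from -0.24 to 0.17 and IGFBP7 from -0.29 to 0.054.

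IGF1, at 0 to 2 reads, and IGFBP2 in WT clone 54, at 6 and 2 reads, had too few reads for a reliable level. For IGF1 the parts of depth and of the overlap with HELLPAR were not tested.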
